A study of Mus musculus with 3 samples.

Results

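A set of 8 genes that drive or restrain melanoma were followed across 3 sublines of a mouse melanoma. The genes were chosen by name: Nras, Hras, Braf, Map2k1, Nf1, Cdk4, Rb1 and Arid2. All 8 had a row among the 14293 genes of the deposited expression table, and all 8 were among the 10701 genes that reached at least 1 RPKM in at least 1 library and were compared. RPKM scales a gene's read count by its transcript length and by library size. The cells were subclones F0, F1 and F10 of the B16 line, which derives from a C57BL/6J melanoma. In common use F0 is the parental line and F10 the highly lung-metastatic subline. The labels name no treatment, and all were grown in the same serum-supplemented medium. Each subline gave 1 library of polyadenylated RNA, so no value below has a replicate error, and subline, culture and library cannot be told apart. All 7 melanocyte markers examined were present, with sums of 9896, 8780 and 8161 RPKM in F0, F1 and F10. Markers of other cells were scarce. Fibroblast markers summed to 4.15, 3.64 and 11.0 RPKM over the 6 of 7 with a row, 3 of which reached 1 RPKM. Leukocyte markers summed to 2.09, 2.09 and 1.21 over 2 of 7, with Ptprc at or near 0, and 4 of 4 endothelial markers summed to at most 0.347. The 4 keratinocyte markers were not analysed here. In bulk RNA, fewer cells of a kind and less RNA per cell cannot be told apart.

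Most of these genes belong to 2 pathways. RAS proteins (Nras, Hras) are membrane-bound switches that, when loaded with GTP, recruit RAF kinases such as Braf. RAF phosphorylates MEK (Map2k1), MEK phosphorylates ERK, and neurofibromin (Nf1) shuts RAS off by speeding GTP hydrolysis. Downstream, D-type cyclins activate Cdk4, which phosphorylates the retinoblastoma protein (Rb1) and so releases E2F transcription factors that drive S-phase genes. Arid2 is a subunit of PBAF, a SWI/SNF complex that moves nucleosomes. In human melanoma BRAF, NRAS, HRAS, MAP2K1 and CDK4 carry activating mutations, while NF1, RB1 and ARID2 are lost or inactivated. The table gives RNA levels only and holds no information on mutations.

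None of the 8 genes differed at least 2-fold between any pair of libraries. Across all compared genes, 1.99% did so between F1 and F0, 3.15% between F10 and F0 and 3.98% between F10 and F1. Differences were taken on the log2(RPKM + 1) scale, which slightly understates those of low genes. The widest range over the 3 libraries belonged to Hras, at 0.65, and 19.1% of all compared genes had a wider one. The narrowest belonged to Arid2, at 0.12, and 93.2% of compared genes had a wider range. Depth was estimated from the steps between low RPKM values. By this estimate the median compared gene rested on 120 (F0), 139 (F1) and 117 (F10) fragments, and 7 of the 8 genes exceeded that median in F0. Each RPKM ratio is given with a 95% exact (Clopper-Pearson) interval computed on the estimated fragments. These intervals cover counting error only and say nothing of how much repeat cultures would differ.

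**Figure D1:**
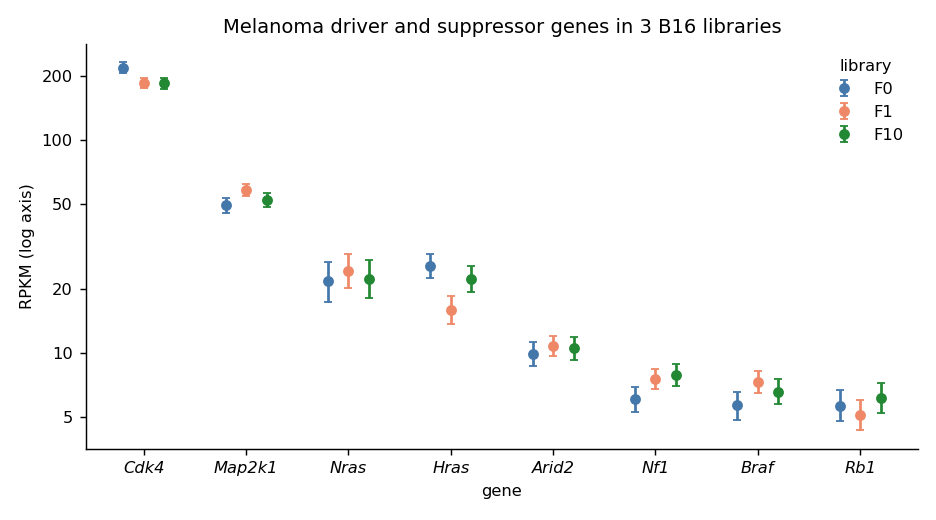
RPKM of each gene in the F0, F1 and F10 libraries on a log axis, with 1 point per library and bars showing the 95% Poisson counting interval from estimated fragments. Cdk4 lay between 185 and 219.6 RPKM in every library, while Rb1 and Braf lay below 8, and the 3 libraries of most genes sat close together apart from the low Hras value of F1.

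In each library Cdk4 stood highest and Map2k1 next, and their counting intervals did not overlap each other or that of any other gene. Hras and Nras followed. Hras was above Nras in F0 with overlapping intervals, below it in F1 with intervals apart, and level with it in F10. Arid2 lay below both RAS genes and above Nf1 in every library, with intervals apart. Nf1, Braf and Rb1 were the lowest. Braf and Nf1 had overlapping intervals in all 3 libraries, and Rb1 was separated from Braf in F1 alone. Among all compared genes, Cdk4 ranked at percentile 97.6, 97.3 and 97.5 in F0, F1 and F10, and Rb1 at percentile 32.5, 29.8 and 34.2.

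The RAS genes Hras and Nras encode near-identical switch domains but were read as separate genes. Hras lies at chr7:141189105-141194005 on the minus strand and Nras at chr3:103058285-103067914 on the plus strand (GRCm38, which is mm10; GENCODE M21). Of the 50-base windows of the longest Hras transcript, 0 of 2779 occurred in a transcript of another gene.

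Hras read 25.6 RPKM in F0, against 15.9 in F1 and 22.3 in F10. The F1 library was thus the low one, and F0 and F10 lay near each other. The F1 to F0 ratio was 0.622 (95% counting interval 0.508 to 0.760, from 171 and 237 estimated fragments), a log2 difference of -0.65. Hras was the 1 gene of the 8 that lay at least 1.5-fold apart in this comparison, where 10.2% of all compared genes did. The F10 to F1 ratio was 1.40 (1.14 to 1.73), a log2 difference of 0.46, and the F10 to F0 ratio was 0.870 (0.718 to 1.05), whose interval includes 1. With the GC-bin subtraction described further on, the F10 to F1 interval took in 1 (its lower bound became 0.989), and the F10 to F0 interval became 0.667 to 0.979 and left it out. In the authors' deposited table the score of Hras was -1.50 in F1 and -0.48 in F10, each against F0. That score equals the RPKM difference over the square root of the RPKM sum and carries no replicate spread.

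Nras, the RAS gene mutated most often in human melanoma, showed no such dip. It read 21.7, 24.2 and 22.3 RPKM in F0, F1 and F10. The F1 to F0 ratio was 1.12 (0.844 to 1.49) and the F10 to F0 ratio 1.03 (0.765 to 1.40), both with intervals that include 1. These intervals are wide, since they rest on 90 to 117 estimated fragments, the fewest of the 8 genes at median transcript lengths. The median Nras length is 802 bases and the longest 4470. With the longest, the estimates are larger and the intervals narrower, at 0.995 to 1.25 for F1 and 0.912 to 1.16 for F10 against F0. Nras stood to Hras at an RPKM ratio of 0.845 in the F0 library and 1.52 in F1, and the pair was level in F10.

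Braf encodes the RAF kinase that is the commonest mutated oncogene of human melanoma. It lies at chr6:39603237-39725463 on the minus strand, and 146 of its 13862 exonic bases overlap Ndufb2 on the opposite strand. Braf read 5.65 RPKM in F0, with 7.30 in F1 and 6.57 in F10. F1 was the highest of the 3 libraries and F0 the lowest. Between F1 and F0 the ratio was 1.29 (1.07 to 1.57), while the F10 to F0 ratio of 1.16 (0.952 to 1.43) and the F10 to F1 ratio of 0.899 (0.749 to 1.08) had intervals including 1. Araf, another RAF gene, read 25.5, 28.3 and 27.5 RPKM, above Braf in each library. The 250 bases before the Braf start site (chr6:39725464-39725713, GRCm38.p6, minus strand, RefSeq) are shown because they hold 2 copies of the cAMP response element TGACGTCA, in capitals. Of 32851 RefSeq promoter windows of this length, 1.55% held at least 1 copy on either strand and 10 windows held 2 or more.
Braf: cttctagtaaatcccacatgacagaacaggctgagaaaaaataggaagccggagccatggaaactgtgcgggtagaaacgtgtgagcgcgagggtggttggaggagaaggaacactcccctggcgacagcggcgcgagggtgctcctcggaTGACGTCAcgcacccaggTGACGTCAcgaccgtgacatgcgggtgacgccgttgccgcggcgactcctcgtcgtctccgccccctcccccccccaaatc

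Map2k1, the MEK1 kinase acted on by RAF, lies at chr9:64185770-64253631 on the minus strand. Its level was 49.3 RPKM in F0, 58.2 RPKM in F1 and 52.4 RPKM in F10. As for Braf, the F1 library was the highest and F0 the lowest. F1 stood to F0 at a ratio of 1.18 (1.07 to 1.31, from 882 and 644 estimated fragments). The F10 to F0 ratio of 1.06 (0.953 to 1.19) had an interval that includes 1, and the F10 to F1 ratio of 0.901 had one that stops just short of it (0.814 to 0.997). That interval took in 1 with equal library sums (0.835 to 1.02), with GC bins and with length bins. Map2k2, which encodes MEK2, was arranged differently, at 22.3, 19.3 and 32.2 RPKM, with an F10 to F1 ratio of 1.66 (1.38 to 2.02). Map2k1 therefore supplied 68.8%, 75.1% and 62.0% of the RPKM of the MEK pair. Exact 50-base windows shared by Map2k1 with Map2k2 numbered 7 of 2387.

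Nf1, the neurofibromin gene and the brake on RAS among these 8, spans chr11:79339693-79581612 on the plus strand. The libraries read 6.04 RPKM (F0), 7.51 RPKM (F1) and 7.89 RPKM (F10), with F0 the lowest and the other libraries close together. Relative to F0 the F1 ratio was 1.24 (1.05 to 1.49, or 0.990 to 1.40 after length bins) and the F10 ratio 1.31 (1.09 to 1.56). The F10 to F1 ratio was 1.05 (0.892 to 1.23), an interval that includes 1. Among the other RAS GTPase-activating genes, Rasa1 read 10.8, 11.6 and 10.4 RPKM, Rasa2 6.61, 6.36 and 5.23, and Rasa3 34.3, 31.7 and 39.4.

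Cdk4 (chr10:127063534-127067920, plus strand), the G1 kinase, read 219.6 RPKM in F0, 186 RPKM in F1 and 185 RPKM in F10. F0 was the high library and the other libraries were nearly equal. Relative to F0 the ratio of F1 was 0.847 (0.782 to 0.918, from 1207 and 1228 estimated fragments) and that of F10 0.842 (0.775 to 0.916). The F10 to F1 ratio was 0.995 (0.914 to 1.08). In the authors' deposited table Cdk4 had scores of -1.67 for F1 and -1.72 for F10 against F0, the largest in size of the 8 genes. A score of at least that size was held by 4.01% and 4.58% of the scored rows, and it grows with level as well as with fold. Of the 3249 exonic bases of Cdk4, 641 overlap the tail of Tspan31 on the opposite strand, and 592 of the 2004 50-base windows of its longest transcript (29.5%) also occur in Tspan31. Tspan31 read 56.9, 52.1 and 41.9 RPKM. The kit was stranded, but whether counting used the strand is not given in the sources used here, and the part of Tspan31 reads in the Cdk4 value was not tested.

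Cdk6, the sister kinase of Cdk4, read 0.830, 1.43 and 1.14 RPKM, so Cdk4 supplied 99.6%, 99.2% and 99.4% of the RPKM of the pair. At the median Cdk6 transcript length of 697 bases, these values rest on 3, 6 and 4 estimated fragments. That is at or near the limit that a count of 0 allows (3 fragments). The longest Cdk6 transcript has 11525 bases, and with that length the estimates would be larger. The 250 bases before the Cdk4 start site (chr10:127063285-127063534, GRCm38.p6, plus strand, RefSeq) are printed because Cdk4 is a textbook target of MYC, which binds the E-box CACGTG. They hold 4 E-boxes, in capitals.
Cdk4: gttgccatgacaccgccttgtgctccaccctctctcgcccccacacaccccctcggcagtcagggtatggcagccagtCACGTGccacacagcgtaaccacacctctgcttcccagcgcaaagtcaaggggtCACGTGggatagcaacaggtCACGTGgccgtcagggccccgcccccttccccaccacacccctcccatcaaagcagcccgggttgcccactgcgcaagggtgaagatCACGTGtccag

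At least 1 E-box was found in 6.02% of the 32851 promoter windows, and at least 4 in 7 windows. Of the 6 genes with a RefSeq promoter here (Nras, Braf, Hras, Map2k1, Cdk4 and Nf1), Cdk4 held 4 E-boxes, Nras held 1 and the remaining 4 genes held none. All motifs were searched on both strands. The GC box GGGCGG, a binding motif of SP1, occurred 4 times before Map2k1, 3 times before Hras, 2 times before Nras and 1 time each before Braf and Cdk4. It occurred in 32.7% of all windows. The E2F motif forms TTTCCCGC, TTTCGCGC, TTTGCCGC and TTTGGCGC were absent from all 6 windows; 1.86% of all windows held at least 1. These are matches of letters, not measured binding. The Hras window (chr7:141194005-141194254, GRCm38.p6, minus strand, RefSeq) is shown with its GC boxes in capitals, since Hras was the gene with the widest range.
Hras: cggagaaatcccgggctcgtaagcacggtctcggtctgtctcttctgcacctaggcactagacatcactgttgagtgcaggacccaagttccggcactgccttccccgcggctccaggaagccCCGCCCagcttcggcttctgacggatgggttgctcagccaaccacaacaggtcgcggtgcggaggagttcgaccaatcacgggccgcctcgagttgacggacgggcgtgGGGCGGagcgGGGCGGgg

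Rb1 (chr14:73183673-73325822, minus strand), the tumour suppressor that holds E2F factors in check, read 5.64 RPKM (F0), 5.10 RPKM (F1) and 6.15 RPKM (F10). F1 was the lowest and F10 the highest, but in the main setting no pair of libraries differed beyond counting error. Against F0 the ratio was 0.903 in F1 (0.714 to 1.15) and 1.09 in F10 (0.861 to 1.38), and the F10 to F1 ratio was 1.21 (0.955 to 1.52). With GC bins the F10 to F1 interval became 1.07 to 1.70 and left out 1. The Rb1 relatives p107 (Rbl1) and p130 (Rbl2) read higher. Rbl1 was at 18.7, 18.7 and 17.6 RPKM, and Rbl2 at 18.8, 14.6 and 13.0. The Rbl2 ratio of F10 to F0 was 0.692, with an upper bound of 0.797. Rb1 made up 13.1%, 13.3% and 16.7% of the RPKM of the family. Exons of Rb1 overlap Rcbtb2 and Lpar6 on the opposite strand over 896 of 6015 bases.

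Arid2 (chr15:96287518-96404992, plus strand), the subunit that marks PBAF, read 9.87 RPKM (F0), 10.8 RPKM (F1) and 10.5 RPKM (F10), so the libraries were close together. Its F1 to F0 ratio was 1.09 (0.920 to 1.29), the F10 to F0 ratio 1.07 (0.891 to 1.27) and the F10 to F1 ratio 0.976 (0.825 to 1.15), all with intervals that include 1. The other PBAF subunits were Pbrm1 (17.1, 15.7 and 15.4 RPKM), Brd7 (41.5, 43.4 and 34.6) and Phf10 (36.3, 55.1 and 35.1). Phf10 had an F1 to F0 ratio of 1.52 (1.32 to 1.75). Arid1a and Arid1b, which take the place of Arid2 in the BAF complex, read 9.81, 14.0 and 13.3 RPKM and 3.47, 3.92 and 4.31 RPKM. The F1 to F0 ratio of Arid1a was 1.43 (1.26 to 1.63).

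**Figure D2:**
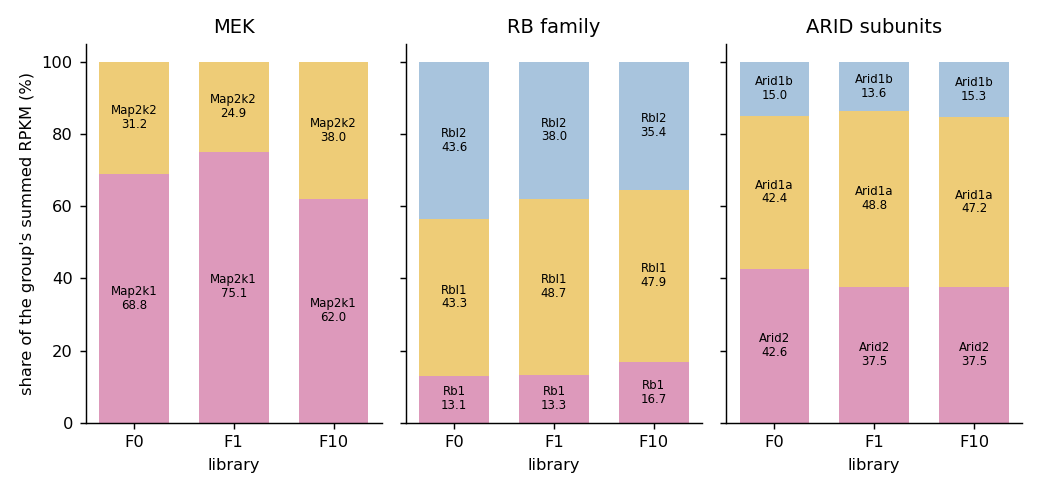
Share of each gene in the summed RPKM of its group (percent), for the MEK, RB and ARID genes in the F0, F1 and F10 libraries. The Map2k1 share is highest in F1 at 75.1%, and Rb1 makes up no more than 16.7% of its family in any library.

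Set side by side, the comparison of F1 with F0 held most of the differences beyond counting error. The interval left out 1 for 5 of the 8 genes, with Braf, Map2k1 and Nf1 higher in F1 and Hras and Cdk4 lower. Among all compared genes with a known length, 33% had such an interval. By direction, 15.3% of genes were higher and 17.7% lower. More fragments give narrower intervals and most of the 8 genes lay above the median in fragments, so the shares are not directly comparable. In the comparison of F10 with F0 the interval left out 1 for Nf1, higher, and Cdk4, lower, that is 2 of 8 against 34% of all genes (15.7% higher and 18.3% lower). For F10 against F1 it did so for Hras, higher, and Map2k1, lower, again 2 of 8 against 38.4% (18.8% higher and 19.6% lower). These interval counts moved with the scaling. Under equal library sums, median-ratio scaling, GC bins and length bins they ran from 4 to 5 for F1 against F0, from 2 to 4 for F10 against F0 and from 1 to 2 for F10 against F1. Braf for F10 against F0 left out 1 with equal sums or GC bins, and Rb1 for F10 against F1 with GC bins. At a threshold of 1.5-fold no gene of the 8 was called for F10 against F0 or for F10 against F1, where 12.3% and 15.5% of all genes were. The median difference over the 8 genes was 0.14 between F1 and F0, 0.09 between F10 and F0 and -0.02 between F10 and F1, and over all compared genes it was -0.01 in each. The 3 comparisons share libraries, so they are not independent of each other.

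**Figure D3:**
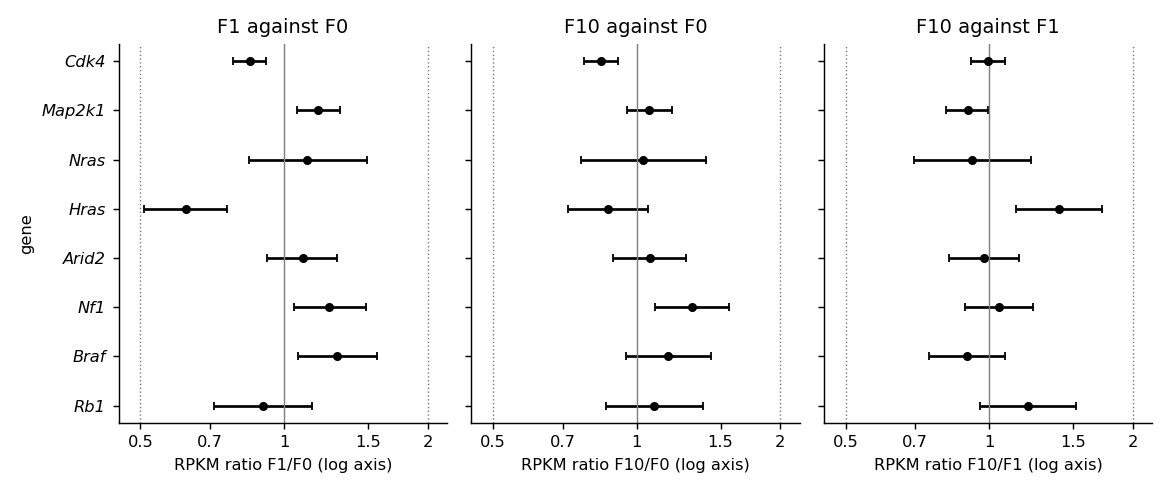
RPKM ratio of each gene for the 3 pairs of libraries on a log axis, with bars showing the 95% Clopper-Pearson counting interval, a solid line at 1 and dotted lines at 2-fold. Every point lies within the 2-fold lines, and the Hras ratio of F1 to F0 (0.622) lies farthest from 1.

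**Figure D4:**
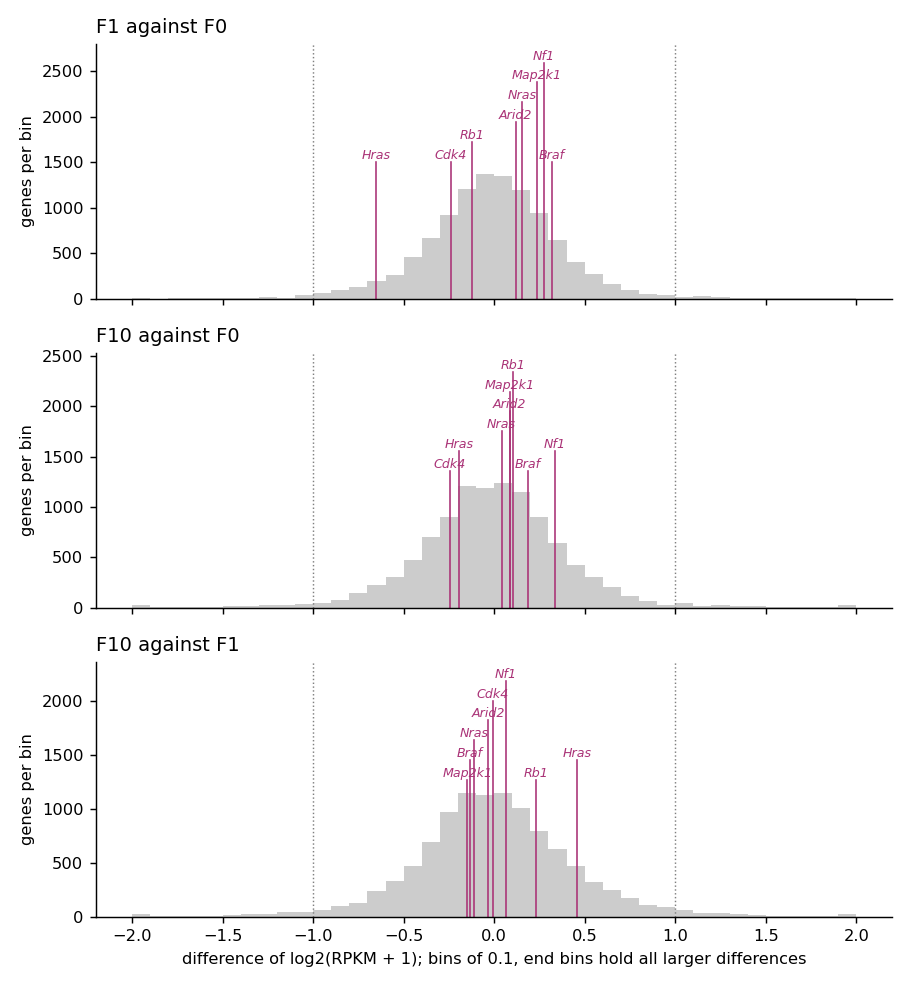
Number of compared genes (grey bars, 10701 in each panel) by difference of log2(RPKM + 1), with the 8 genes as labelled lines and dotted lines at 2-fold. For F10 against F0, 7 of the 8 lines lie within 0.25 of 0, as did 53.6% of all genes.

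GC content moved with the comparisons that involve F10. In the 20 GC bins of compared genes the median F10 minus F1 difference went from -0.18 in the lowest bin to 0.30 in the highest, and for F10 minus F0 from -0.08 to 0.27. The Hras transcripts have a median GC content of 57.4% and those of Rb1 41.2%. After subtraction of the bin medians the F10 minus F1 difference of Hras was 0.26 in place of 0.46, and that of Rb1 0.39 in place of 0.23. The F1 minus F0 difference of Hras was less affected, at -0.59 in place of -0.65. That of Rb1 was -0.23 in place of -0.12. The F10 minus F0 difference was 0.42 for Nf1 and -0.26 for Cdk4 after this step, against 0.34 and -0.25 before. Transcript length showed a trend too. From the bin of shortest to that of longest transcripts, the median F1 minus F0 difference went from -0.09 to 0.08. For F10 minus F0 it went from -0.02 to 0.11. Subtracting medians of 20 length bins instead brought the F10 minus F0 difference of Nf1 to 0.23 and that of Cdk4 to -0.14. The Map2k1 difference for F10 minus F1 went from -0.15 to -0.10.

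Gene lists of the RAS to ERK pathway were counted at the same 2-fold threshold on the log2(RPKM + 1) scale. Braf and Map2k1 belong to the kinase list and Nf1 to the GTPase-activating list, so those list medians include them. Over all compared genes the shares were 1.99%, 3.15% and 3.98%. Counts of 0 in lists this short are near those shares. In the list of RAF, MEK and ERK kinases, 0 of 7 genes lay at least 2-fold apart in any pair, with medians of 0.11 for F1 and 0.09 for F10 against F0, and Map2k2 passed 1.5-fold for F10 against F1. The ERK gene Mapk3 read 62.6, 54.8 and 56.9 RPKM, far above Braf. Of the 12 compared RAS GTPase-activating and Spred genes none was 2-fold apart either, with medians of 0.06 and 0.17. Spred1, which brings neurofibromin to the membrane, read 13.3, 12.0 and 12.4 RPKM, and Spred2 read 5.13, 7.09 and 7.22. Dab2ip, another GTPase-activating gene, had the largest F10 against F0 difference of this list at 5.61 and 8.94 RPKM. Exchange factors and adaptors, which load RAS with GTP, had medians of 0.07 and -0.03 over 10 genes, again with none 2-fold apart. Rasgrp3, an exchange factor, read 33.4, 21.8 and 32.9 RPKM, with an F1 to F0 ratio of 0.651 (0.566 to 0.751). Sos1 read 6.29, 6.58 and 6.09 RPKM, and the adaptor Shc1 29.5, 35.4 and 42.5. The 12 scaffold genes had medians of 0.01 and -0.04 and none 2-fold apart. Ksr1, a scaffold for RAF and MEK, had the largest F10 against F0 difference of that list on 4 and 8 estimated fragments, and it passed the filter through F10 alone. With a pseudocount of 0.1 it was past 2-fold. Among 13 enzymes of RAS lipid modification, Abhd17a, which removes palmitate from N-RAS, was the 1 gene past 2-fold, for F10 against F1 (5.77 and 12.8 RPKM, a ratio of 2.22 with interval 1.48 to 3.39). Its transcripts have a GC content of 64.6%, and after GC bins its difference was 0.73 in place of 1.03, below 2-fold. The medians of that list were -0.07 and -0.03.

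The lists of Cdk4 and Rb1 with their partners read lower than in F0 more often than higher, in F1 and in F10. Cdk4 itself is counted in the cyclin and CDK list, and Rb1 in the RB, E2F and DREAM list. Among all compared genes 50.8% were lower in F1 and 51.0% in F10. Of 12 compared D-type cyclin, CDK and inhibitor genes, 8 lay below their F0 value in F1, of which 4 by 1.5-fold or more (10.2% of all genes in either direction), with a median of -0.28. In F10, 9 lay below F0, with a median of -0.18. None was 2-fold apart on the log2(RPKM + 1) scale. Of all compared genes 1.99% were for F1 against F0, 3.15% for F10 against F0 and 3.98% for F10 against F1. Among the D-type cyclins, the partners of Cdk4, Ccnd3 read 88.1, 55.1 and 85.6 RPKM, with an F1 to F0 ratio of 0.626 (0.537 to 0.728). Ccnd1 read 55.4, 44.4 and 74.3 RPKM and Ccnd2 138.9, 133.2 and 122.1. The inhibitor Cdkn2c, which binds Cdk4 and Cdk6, read 16.8, 17.8 and 18.8. Cdkn1a, the inhibitor p21, read 154.9, 83.3 and 78.4 RPKM, highest in F0, with an F10 to F0 ratio of 0.506 (0.459 to 0.557). Cdkn1b, the inhibitor p27, read 23.8, 32.6 and 19.0 RPKM, highest in F1, with an F10 to F1 ratio of 0.584. Ccne2, a cyclin of CDK2, had the largest F10 against F0 difference of the list (9.85 and 4.50 RPKM). Its RPKM ratio was 0.456 (0.342 to 0.609), past 2-fold, and it stayed short of the threshold through the pseudocount of 1: its log2 difference was -0.98, against -1.05 with 0.5 and -1.11 with 0.1. Of the 20 RB, E2F and DREAM genes, 14 lay below F0 in F1 and 17 in F10, with medians of -0.16 and -0.13 and none 2-fold apart. E2f1 read 22.9, 16.1 and 18.6 RPKM and E2f4 26.9, 23.3 and 20.1.

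Textbook E2F target genes, whose transcription RB restrains, were lower in F1 than in F0 for 19 of 20 members, by a median of -0.35. Across all compared genes 50.8% were lower. The exception was Rbl1, at 18.7 RPKM in both. On the log2(RPKM + 1) scale none of the 20 was 2-fold apart, though Ccne2 was past 2-fold in RPKM as described above. With shares of 1.99% to 3.98% over all compared genes, a count of 0 in a list this short is near the background. Of the 16 that are on no other list here, 16 were lower. For F10 against F0, 14 of 20 were lower with a median of -0.12, beside 51.0% of all compared genes. For F10 against F1, 15 of 20 were higher with a median of 0.22, beside 48.8% of all compared genes. This last comparison uses the same F1 library as F1 against F0, so the results are not independent. Some of these genes, such as Ccne1 (37.7, 19.7 and 34.5 RPKM), are also counted with the cyclins.

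Among SWI/SNF subunits, the 4 PBAF genes had medians of 0.09 for F1 and -0.10 for F10 against F0. For F10 against F1 all 4, Arid2 included, read lower, with a median of -0.18, as did 51.1% of all compared genes. The intervals of Arid2 and of Pbrm1 (0.857 to 1.12) included 1. The Arid2 difference of -0.03 changed sign with equal library sums and with GC bins. For the 10 genes specific to BAF or ncBAF the medians for F1 and F10 against F0 were 0.08 and 0.20. For the 10 shared subunits they were 0.02 and 0.11. On the log2(RPKM + 1) scale 1 gene of these lists passed 2-fold, the ATPase Smarca2, for F10 against F1, at 9.55 and 4.23 RPKM. Its ratio was 0.443 (0.241 to 0.770) on 48 and 18 estimated fragments, and after GC bins its difference was -0.88 in place of -1.01. Those fragments rest on a median Smarca2 length of 834 bases. With its longest transcript, of 5921 bases, they would be more and the interval narrower. Dpf1, of the BAF list, had the largest F10 against F0 difference there (0.737 and 2.07 RPKM, on 6 and 17 fragments), and it passed the filter through F10 alone. Its RPKM ratio was 2.81 (1.08 to 8.88) for F10 against F0 and 3.67 (1.41 to 13.8) for F10 against F1, and with a pseudocount of 0.5 it was past 2-fold in both. Over the 152 compared genes of all lists, 8 studied genes included, the count 2-fold apart with a pseudocount of 1 was 0 between F1 and F0, 0 between F10 and F0 and 2 between F10 and F1. Over all compared genes the shares were 1.99%, 3.15% and 3.98% in the same order.

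**Figure D5:**
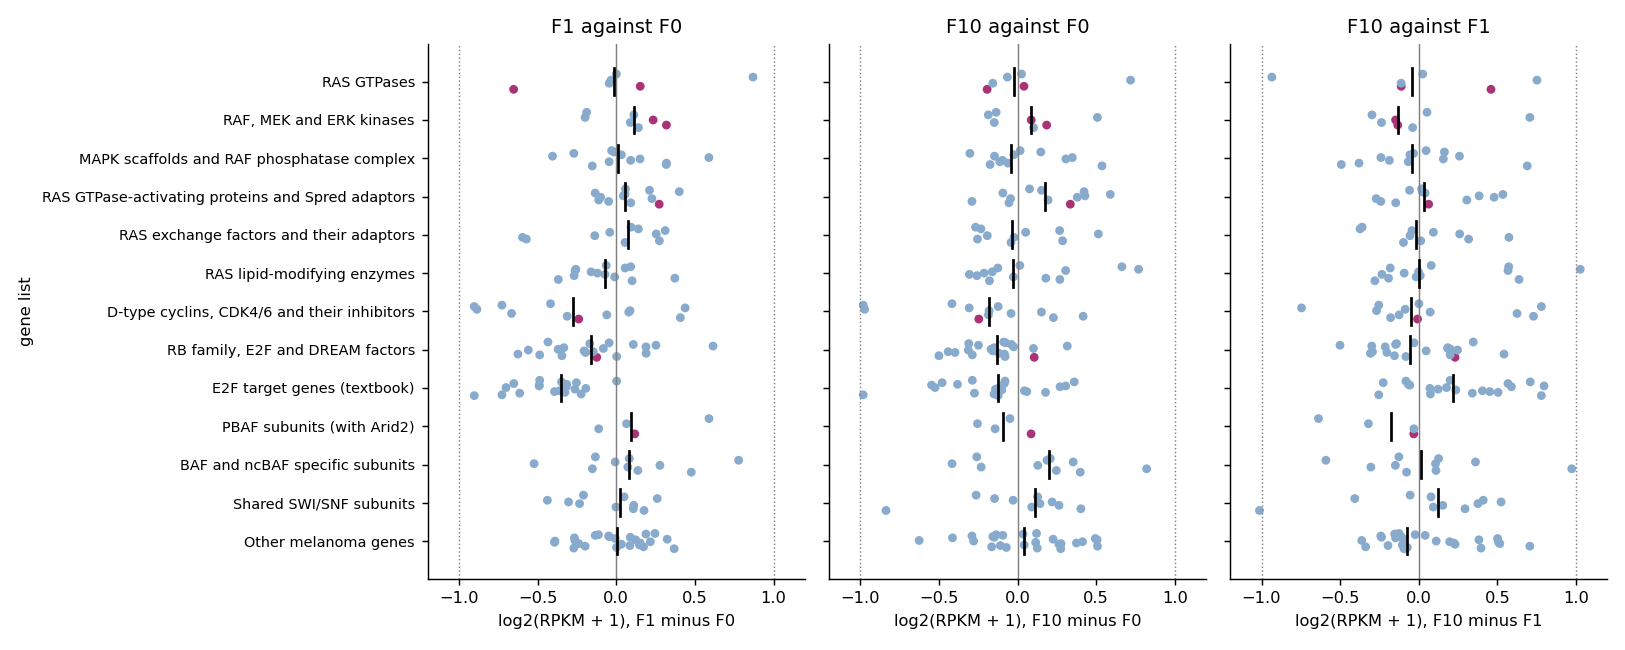
Differences of log2(RPKM + 1) for every compared gene of the 13 lists in the 3 pairs of libraries, with the 8 genes in purple, black bars at list medians and dotted lines at 2-fold. In F1 against F0, 19 of 20 E2F targets lie left of 0, and Hras lies at -0.65.

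By distance between their F1 minus F0 and F10 minus F0 differences over the 3 libraries, the genes most like Hras were Rpp30 (15.2, 9.43 and 13.2 RPKM), Retsat (34.6, 22.0 and 30.3) and Rbm12 (13.7, 8.19 and 11.7). They lay at distances of 0.022 to 0.027 among 3726 genes of similar level. With 3 libraries many genes can share a pattern. Within the lists, the gene nearest to Hras was Cdk1 at 0.089. Braf lay nearest to Pik3ca, Map2k1 to Stag2, Nf1 to Sos2, Cdk4 to Icmt, Rb1 to Tfdp1 and Arid2 to Araf, at distances of 0.028 to 0.049.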

How the data were processed

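The authors deposited 1 table with RPKM per gene for 3 libraries and a score for F1 and for F10 against F0, per the file headers. The labels' protocols name a stranded kit for polyadenylated RNA. Per the submitters' processing notes, the tools were Cufflinks, TopHat, Bowtie2 and bcl2fastq, with build mm10. Their versions, settings and annotation are not stated. Libraries were grouped by subclone label. Rows with a date for a symbol (20 of 14313) were left out. Fragments were estimated as RPKM times the median protein-coding transcript length (GENCODE M21, GRCm38, less 40 bases) over the worth of 1 fragment, found from low values of 1392 single-transcript genes. By this estimate a transcript of 1 kb at 1 RPKM holds about 5.45, 6.33 and 5.39 fragments in F0, F1 and F10. For Nras, Cdk6, Ksr1, Mras and Smarca2, among others, the longest transcript is far longer than the median one. With it their estimated fragments would be more and their intervals narrower. With 1 library per group no test was possible. Genes differing at least 2-fold were counted with a pseudocount of 1. Steps were tested on simulated data, with Python 3.11.15, scipy 1.17.1 and pandas 2.3.3.

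The members and gene lists were chosen with earlier results of these data known. The motifs and printed sequences were chosen after values were seen. The rule for named genes takes the 8 genes, their listed paralogs and partners, list genes at least 2-fold apart (at most 6 per list), the largest F10 against F0 difference of each list, and the nearest genes by pattern. A few other genes that overlap or exemplify these were named after values were seen (Tspan31, Ndufb2, Rcbtb2, Lpar6, Rasa3, Rasgrp3, Ccne1, Cdkn1a, Cdkn1b and Rras). Some genes that the rule takes are not reported here. Alternatives were a pseudocount of 0.1 or 0.5, leaving out the filter or raising it to 5 RPKM, equal library sums, median-ratio scaling, subtraction of the medians of 20 GC or length bins, thresholds of 1.5-fold and 4-fold, and the longest transcript for intervals. Intervals multiplied by the factors of the scalings and bins were added after seeing the data.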

Additional observations from a re-analysis of the deposited data

How the results depend on the processing

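At 1.5-fold in place of 2-fold, 1 gene of the 8 was called for F1 against F0 (Hras). The pseudocounts, scalings, GC bins and length bins left the count at 0 in each pair. The filter settings could not change it, because all 8 genes lay above 5 RPKM in every library. Nor could the 4-fold threshold, because a count of 0 at 2-fold stays 0 at 4-fold. Of 192 differences of single genes recomputed, 0 left their counting interval and 4 changed sign, all for Cdk4 or Arid2 in F10 against F1 and none larger than 0.032 in the main setting. The 192 include the filter settings, which leave each of these differences unchanged by construction. The median over the 8 genes for F10 against F1, -0.02, became 0.02 with equal library sums and 0.01 after GC bins. With the longest transcript in place of the median one, no interval changed side of 1. Intervals multiplied by the scaling and bin factors, an alternative chosen after seeing the data, left out 1 no longer for Nf1 (F1 against F0), Hras and Map2k1 (F10 against F1), and newly for Braf, Hras and Map2k1 (F10 against F0) and Rb1 (F10 against F1), each under at least 1 of them. The cause was not tested. Of 312 list counts recomputed at 2-fold, 22 moved more than 1.5 times. Genes 2-fold apart over the whole table ranged with the setting from 1.49% to 5.07% for F1 against F0, from 2.16% to 6.24% for F10 against F0 and from 2.98% to 7.77% for F10 against F1. No paired analysis was possible because each group has 1 library. Leaving out a library was not possible for the same reason. Estimated fragments of the 8 genes ran from 90 to 1228 per library, and the spread between repeat cultures is unknown.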

Other observations

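Outside the classical RAS genes, the related GTPase Rras read 6.51 (F0), 12.7 (F1) and 6.18 (F10) RPKM. Its F1 to F0 ratio was 1.95 (95% counting interval 1.16 to 3.40) on 50 and 22 estimated fragments, just short of 2-fold. Its F10 to F1 ratio was 0.486 (0.281 to 0.836), past 2-fold in RPKM, with a log2(RPKM + 1) difference of -0.93. Mras, which pairs with Shoc2 to activate RAF, read 2.22, 2.15 and 4.30 RPKM, with an F10 to F1 ratio of 2.0 (1.04 to 4.13) on 26 and 15 fragments. Of the 6 RAS-type genes, Hras was at least 1.5-fold lower and Rras at least 1.5-fold higher in F1 than in F0.

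Of 25 other melanoma genes compared, a list that shares some members with the lists above, 0 were 2-fold apart on the log2(RPKM + 1) scale in any pair. Of all compared genes 1.99% were for F1 against F0, 3.15% for F10 against F0 and 3.98% for F10 against F1. A count of 0 in a list this short is near those shares. The median of the list was 0.00 for F1 and 0.04 for F10 against F0. Mdm2, which degrades p53, had the largest F10 against F0 difference, at 45.9 and 29.4 RPKM, a ratio of 0.640 (0.570 to 0.718).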
